A study of Nothobranchius furzeri with 12 samples.

Results

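The comparison described here is that of age under full feeding in the intestine of the African turquoise killifish, *Nothobranchius furzeri*. Its members were taken from the sample labels: 4 libraries of fish killed at 20 weeks and fed ad libitum throughout (W20 AL), against 4 libraries of fish killed at 10 weeks (W10), 8 of the 12 libraries of the series. The other 4 come from fish of 20 weeks under dietary restriction by fasting on every second day (W20 IF). All fish were wild-type males of the strain GRZ and received an excess of Chironomus larvae. The W20 AL and W10 fish shared this diet up to the age of 10 weeks, at which the W10 fish were killed. Since 20 weeks is close to the maximum lifespan of this strain, W20 AL represents fish that survived to old age. The question was which genes change their expression in the intestine between adult and old age.

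The killifish gut has no stomach, and its mucosa forms folds with interfold regions between them. New epithelial cells arise from dividing cells in the interfold regions and replace absorptive enterocytes, mucus-secreting goblet cells and hormone-secreting enteroendocrine cells. In ageing animals this renewal, the uptake of nutrients and the barrier towards the gut content are known to be affected. The labels give whole intestine as the tissue, whereas the study's methods speak of the small intestine. Such tissue also holds muscle, nerves, blood and immune cells, and in bulk samples fewer cells of a type and less RNA per cell cannot be told apart. The genes carry Ensembl identifiers, and 0 of the 25475 identifiers matched a name in the reference table used. For this reason no marker genes of cell types were examined, and genes are described by level, size and direction, with 2 rising and 2 falling genes given by identifier.

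Poly(A) RNA was sequenced as pairs of 75 bp reads, and the deposited values are read counts per gene. The W20 AL libraries held 23226098 to 25642167 counts and the W10 libraries 24249659 to 26986542 counts. Genes with at least 1 count numbered 22260 to 22469 in W20 AL and 22178 to 22608 in W10. The 10 most abundant genes took 23.0 to 24.4% of the counts in W20 AL and 22.3 to 23.2% in W10. In none of 4 such library values (total, genes with a count, share of the 10 and of the 100 most abundant genes) did the groups differ beyond the spread of their libraries (exact two-sided permutation tests over 70 labellings, p = 0.0857 to 0.714, adjusted over the 4 values 0.229 to 0.714). A count of 0 in a library allows up to 0.111 to 0.129 CPM (the count scaled to the library total), as far as counting error alone is concerned.

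Most genes hardly differed between old and adult intestines. Of 18027 genes with sufficient counts, 87.7% had an absolute log2 fold change under 0.50 and 96.7% one under 1. The median absolute log2 fold change was 0.16, beside a median standard error of 0.16, and the median of the signed values was 0.00243. Each standard error was computed from the fold change and its test statistic, and was thus not estimated apart from the fold change. As a single value, the mean log2 CPM profiles of both groups lay 54.5 apart over all these genes, a root mean square difference of 0.41 per gene. No other labelling of the 8 libraries gave a larger distance (exact permutation test, p = 0.0286, the smallest that 70 labellings allow).

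Each of the 18027 genes was tested with edgeR's quasi-likelihood test and Benjamini-Hochberg adjustment, and was called when its adjusted p-value lay under 0.05 and its change exceeded 2-fold. By this measure 156 genes changed with age, 0.865% of those tested. In W20 AL, 72 genes were higher than in W10 (0.399%) and 84 were lower (0.466%). Among these 156 genes, the falling ones changed by larger steps than the rising ones. The median log2 fold change of the falling genes was -2.04 (median standard error 0.38), whereas that of the rising genes was 1.35 (median standard error 0.27). More than 4-fold changes were found for 43 of the 84 falling and for 15 of the 72 rising genes. An absolute log2 fold change between 1 and 1.5 was found for 44 of the 72 rises and 27 of the 84 falls. These sizes are those of genes selected by the same contrast and are inflated to an unknown extent. Refitted without W10 replicate 1, the 84 falling genes had a median size of 1.95 and the 72 rising genes one of 1.44. Among genes called only in that fit and tested in both, 109 falls had a median of -1.26 and 32 rises one of 1.39. This list leaves out every gene called with all libraries, most of the largest falls included. Its sizes are thus set in part by its selection and cannot decide which direction changed by larger steps.

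When the limit on the fold change was left aside, 437 genes had an adjusted p-value under 0.05 (2.42% of the genes tested), and the balance between the directions turned. Of these, 254 (58.1%) were higher and 183 were lower in W20 AL, against 46.2% higher ones among the genes called with the limit. The 281 genes added in this way had changed by a median of 0.59 on the log2 scale, and 182 of them rose while 99 fell. They were expressed at a median of 18.0 CPM, against 7.09 CPM over all tested genes. At an unadjusted p-value under 0.05 there were 3101 genes, 1588 of them higher in W20 AL. The excess of rises depended on the scaling and on 1 library. With library totals as the only scaling 49.9% of 369 genes were higher in W20 AL, and without W10 replicate 1 this held for 45.8% of 594 genes (272 higher and 322 lower). The 7 other libraries, left out in turn, gave 53.1 to 67.3% higher and 127 to 294 genes: 294, 155, 214 and 194 genes without W20 AL replicates 1, 2, 3 and 4, and 142, 127 and 254 genes without W10 replicates 2, 3 and 4.

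A measure that does not rely on the test, but does depend on the scaling of the libraries, is their order. In 2531 of all tested genes (14.0%) the 4 W20 AL libraries and the 4 W10 libraries did not overlap, with W20 AL above W10 in 1430 genes and below it in 1101. Among the called genes this held for each of the 72 that rose and for 79 of the 84 that fell, which follows in part from their selection.

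**Figure D1:**
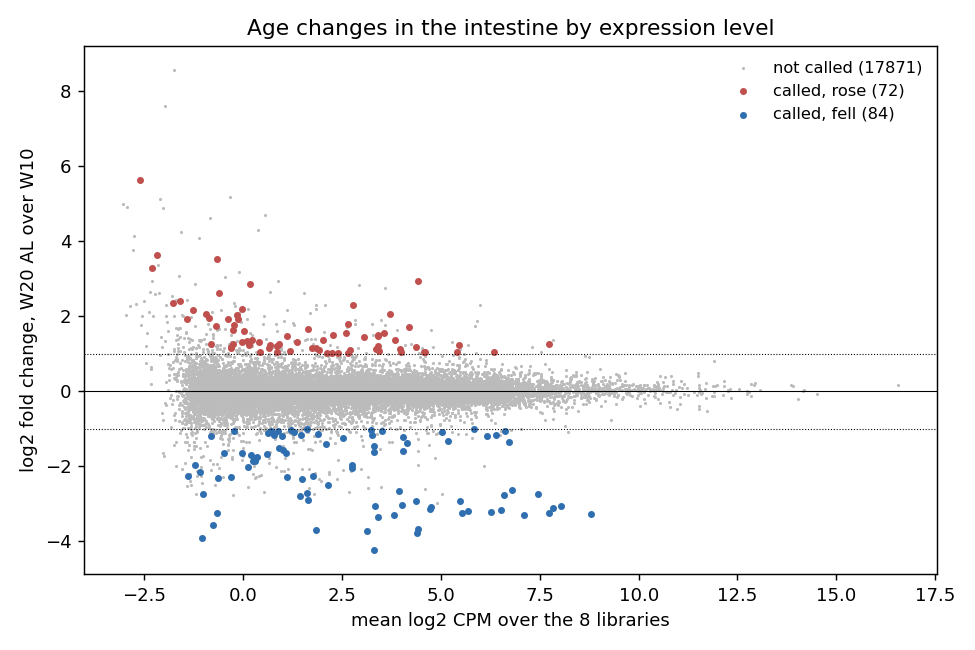
Log2 fold change of W20 AL over W10 (vertical axis) against the mean log2 CPM over the 8 libraries (horizontal axis), with 1 point per tested gene and dotted lines at a 2-fold change. The 72 called genes that rose lie mainly at low expression, whereas the 84 that fell reach to high expression and include 12 with a mean above 100 CPM.

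Abundant transcripts were more frequent among the called genes that fell than among those that rose, as a description of these lists. The median level over the 8 libraries was 2.37 CPM for the 72 rising genes (quartiles 0.99 and 11.2 CPM) and 7.85 CPM for the 84 falling genes (quartiles 1.82 and 48.9 CPM). Above 100 CPM there were 1 rising and 12 falling genes. Below 1 CPM there were 18 rising and 11 falling genes.

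All tested genes were divided into 5 classes of equal size by their mean log2 CPM over both groups. The percentage of genes called was 1.25% in the lowest class (median level 0.641 CPM), 1.03%, 0.776% and 0.610% in the classes that follow, and 0.666% in the highest class (median level 62.7 CPM). In the lowest class 28 genes rose and 17 fell. This excess of rises was not kept in each fit. Without W10 replicates 2, 3 and 4 there were 8, 8 and 15 rises in this class, against 14, 10 and 15 falls. With at least 10 counts in each library, 13 rose and 13 fell. Rises stayed more frequent with W10 replicate 1 (38 and 27) or any W20 AL library left out, and with DESeq2 (55 and 34). In the highest class 4 rose and 20 fell. The number of falls there depended on single libraries. It was 5, 1, 6 and 22 without W20 AL replicates 1, 2, 3 and 4, and 19, 5, 5 and 9 without W10 replicates 1, 2, 3 and 4, with 2 to 6 rising genes in these fits. The excess of falls in this class also depended on the model. With the 8 libraries only, 9 genes rose and 13 fell, and with a replicate block 3 rose and 5 fell. DESeq2 gave 10 rises and 23 falls, and limma voom 15 and 24. The share of calls among genes with more than 2-fold changes differed with the precision at each level. In the lowest class, 291 genes had an absolute log2 fold change above 1 and 15.5% of these were called, with a median standard error of 0.34 over the class. In the highest class, 48 genes had such a change and 50% were called, with a median standard error of 0.11.

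By the adjusted p-value alone, the share of genes past the test was 3.27% in the highest and 1.25% in the lowest class. In the highest class these were 77 rising genes with a median log2 fold change of 0.53 in size (median standard error 0.11) and 41 falling genes with one of 0.94 (median standard error 0.17).

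**Figure D2:**
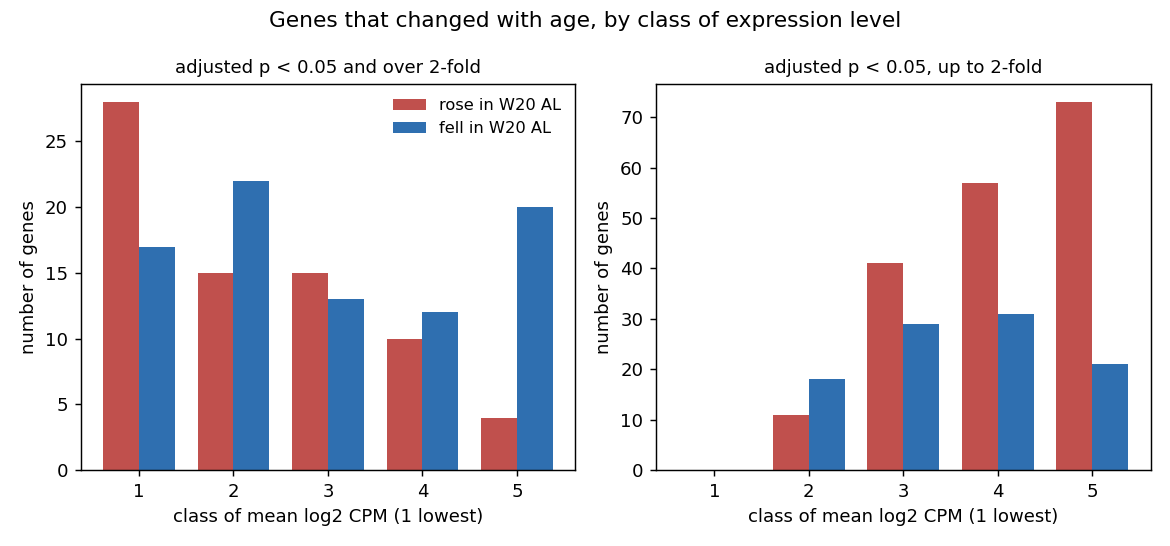
Number of genes past the test (vertical axes) by class of mean log2 CPM (horizontal axes, 1 is lowest), with changes over 2-fold on the left and smaller changes on the right. Over 2-fold, 20 falling and 4 rising genes stand in the highest class, while rising genes outnumber falling ones among the smaller changes of that class.

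The changes of the 100 most abundant genes were close to those of the highest expression class, to which they belong. Of the 100 genes with the highest mean, all above 1245 CPM, 0 were called with the limit of 2-fold (edgeR's quasi-likelihood test). The share called was 0.666% in the highest class and 0.865% over all tested genes. At such shares 100 genes are too few for 0 calls to stand out. By the adjusted p-value alone 3 of them changed, against 3.27% of the highest class and 2.42% of all tested genes, and these 3 rose. Over all 100 genes the median absolute log2 fold change was 0.12, as in the whole highest class, and the highest was 0.80. W20 AL and W10 were fully separated in 17 of these genes, 12 of them higher and 5 lower in W20 AL. This held for 21.5% of the highest class and for 14.0% of all tested genes.

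Among the 72 called genes that rose, ENSNFUG00015012843 had the highest level. It had 332, 298, 346 and 384 CPM in the W20 AL libraries, against 177, 97.7, 91.0 and 199.9 CPM in the W10 libraries. The lowest W20 AL library thus lay well above the highest W10 library, and the W10 libraries fell into a higher and a lower pair. The log2 fold change was 1.27 with a standard error of 0.24 (edgeR's quasi-likelihood test, adjusted p = 0.0212). The call was lost without W20 AL replicate 3 (adjusted p = 0.0519, same edgeR test) and without W20 AL replicate 4 (adjusted p = 0.0589), at a log2 fold change of 1.26 and 1.20. With all libraries, the test of DESeq2 gave an adjusted p-value of 3.15e-06.

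The largest fitted rise among the called genes was that of ENSNFUG00015015138, a gene close to the detection limit. Its counts were 3, 5, 5 and 12 in the W20 AL libraries, against 0 in each W10 library. The W20 IF libraries had 24, 14, 19 and 0 counts. The gene passed the filter only with the W20 IF libraries included, and was not tested with the 8 libraries only. The 25 counts over W20 AL correspond to a level 8.79-fold that of the floor of 3 counts over the W10 group. The counting error of the 25 counts is not included in this value. Its adjusted p-value was 0.0201 (edgeR's quasi-likelihood test) and rose to 0.0539 without W10 replicate 2 and to 0.0509 without W10 replicate 3. Of the 15 rises over 4-fold, 12 stood in the lowest class of expression and 0 in the highest.

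The largest fall among the called genes was found for ENSNFUG00015024322. It had 2.94, 3.54, 4.17 and 0.286 CPM in the W20 AL libraries, against 84.9, 51.3, 33.1 and 37.3 CPM in the W10 libraries. W20 AL replicate 4, with 7 counts, lay below the other 3 libraries of its group, and W10 replicate 1 was the highest of all. The log2 fold change was -4.24 with a standard error of 0.63 (edgeR's quasi-likelihood test, adjusted p = 0.0119), which is 18.9-fold lower in W20 AL. The call held with each of the 8 libraries left out, with log2 fold changes of -4.51 to -3.87.

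Among the 84 called genes that fell, ENSNFUG00015003267 had the highest level. It had 159, 239.5, 247 and 31.1 CPM in the W20 AL libraries, against 2660, 1684, 954 and 1215 CPM in the W10 libraries. Again W20 AL replicate 4 was the lowest and W10 replicate 1 the highest library, and the groups were far from overlapping. The log2 fold change was -3.27 with a standard error of 0.62 (edgeR's quasi-likelihood test, adjusted p = 0.0318). In spite of its size the call was close to the threshold in this test. It was lost with adjusted p-values of 0.0533 to 0.0774 (same edgeR test) when W10 replicate 2, 3 or 4 or W20 AL replicate 1, 2 or 3 was left out. With all libraries, the test of DESeq2 gave an adjusted p-value of 2.61e-06.

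The falls of abundant genes had a common order of libraries. The 12 called genes that fell and had a mean above 100 CPM fell by 1.07 to 3.29 on the log2 scale, 10 of them more than 4-fold, and the groups did not overlap in any of the 12. Their group means were 29.3 to 169 CPM in W20 AL and 145 to 1628 CPM in W10. Together they summed to 786, 1176, 1193 and 315 CPM in the W20 AL libraries, against 10535, 6769, 4027 and 5078 CPM in the W10 libraries. In 10 of the 12 genes W10 replicate 1 was the highest and W20 AL replicate 4 the lowest of all 8 libraries.

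The same order was seen in 33 of the 43 genes that fell more than 4-fold. These 43 genes summed to 788, 1264, 1254 and 206 CPM in the W20 AL libraries and to 12389, 7840, 4501 and 5712 CPM in the W10 libraries. W10 replicate 3 was the lowest W10 library in 34 of the 43 genes. The levels of these genes varied together across libraries, so that they are not independent evidence of a fall. Among the 41 smaller falls, W10 replicate 1 was the highest W10 library in 11 genes and the lowest in 18. Over all tested genes it was the highest of its group in 32.7% and the lowest in 27.3%, and W10 replicate 3 was the lowest in 26.0%. The 72 rising genes summed to 1098, 1137, 1155 and 1288 CPM in W20 AL, against 508, 423, 402 and 553 CPM in W10, with a much narrower range within each group.

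All called genes that fell took 0.0597 to 0.169% of the counts in W20 AL and 0.548 to 1.37% in W10. Those that rose took 0.112 to 0.126% in W20 AL and 0.0400 to 0.0549% in W10. The called genes thus made up little of the read counts at either age.

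**Figure D3:**
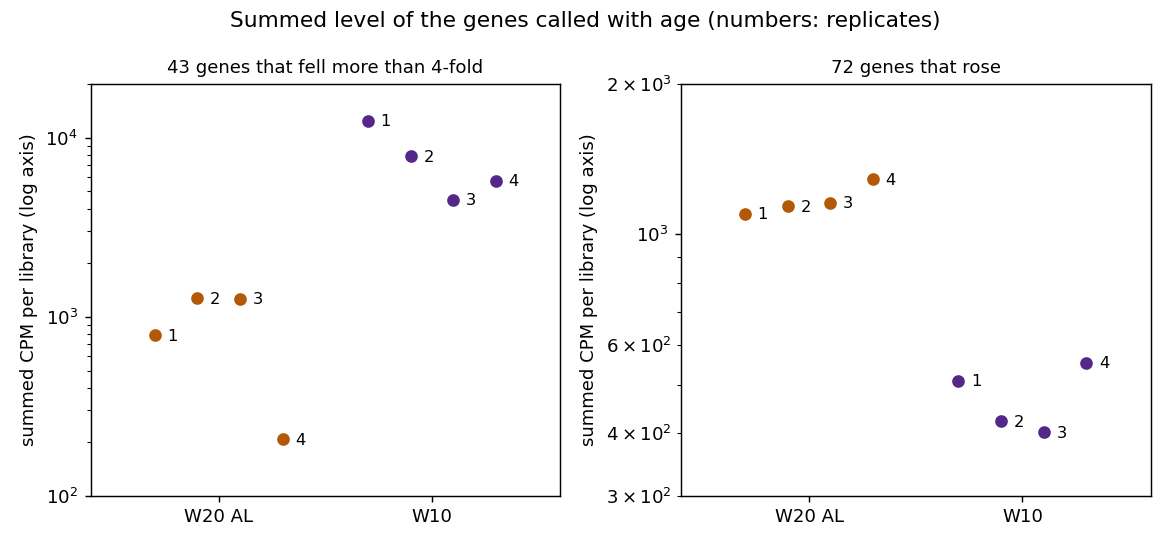
Summed CPM per library (vertical axes, logarithmic) of the 43 genes that fell more than 4-fold (left) and of the 72 genes that rose (right), with 1 point per library of W20 AL and of W10 and the replicate number beside it. For the falling genes W20 AL replicate 4 is lowest with 206 CPM and W10 replicate 1 highest with 12389 CPM, while the rising genes spread little within each group.

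A difference in spread between the libraries of the groups was not detected. The median over genes of the SD of log2 CPM was 0.17 in W20 AL and 0.17 in W10. The mean absolute deviation of a library from the median of its group averaged 0.169 in W20 AL and 0.169 in W10 (difference 0.000775, exact two-sided permutation test over 70 labellings, p = 0.943). Without W10 replicate 1, the median SD of W10 was 0.14, and 60.4% of the genes had a higher SD in W20 AL than in W10, against 51.6% with all libraries. The difference in mean absolute deviation was then 0.0400 (exact permutation test over 35 labellings, p = 0.0571), so that it did not pass the threshold. Each of the other W10 libraries, left out in turn, also gave a positive difference, of 0.0146 to 0.0227. Each W20 AL library left out gave a negative one, of -0.0296 to -0.0172. The sign thus followed the group that had lost a library, so that these values do not show a greater spread in W20 AL. The same limit holds for the median SD and the 60.4%, since the groups then differ in their number of libraries.

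The number of called genes depended on single libraries. Without W20 AL replicates 1, 2, 3 and 4 it was 154, 71, 107 and 98. Without W10 replicates 1, 2, 3 and 4 it was 278, 71, 67 and 109. Of these 8 numbers, 7 lay below the 156 genes called with all libraries, and 1, that without W10 replicate 1, lay above. In these fits the 156 genes had a median change of 1.52 to 1.66 in absolute log2 value. Their direction could hardly change, since the groups did not overlap in 151 of them. In each of these fits 63 to 132 of the 156 genes were still called, and 43 genes (16 rising and 27 falling) were called in every one of them. This group had a median absolute log2 fold change of 1.85 and a median level of 5.11 CPM.

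**Figure D4:**
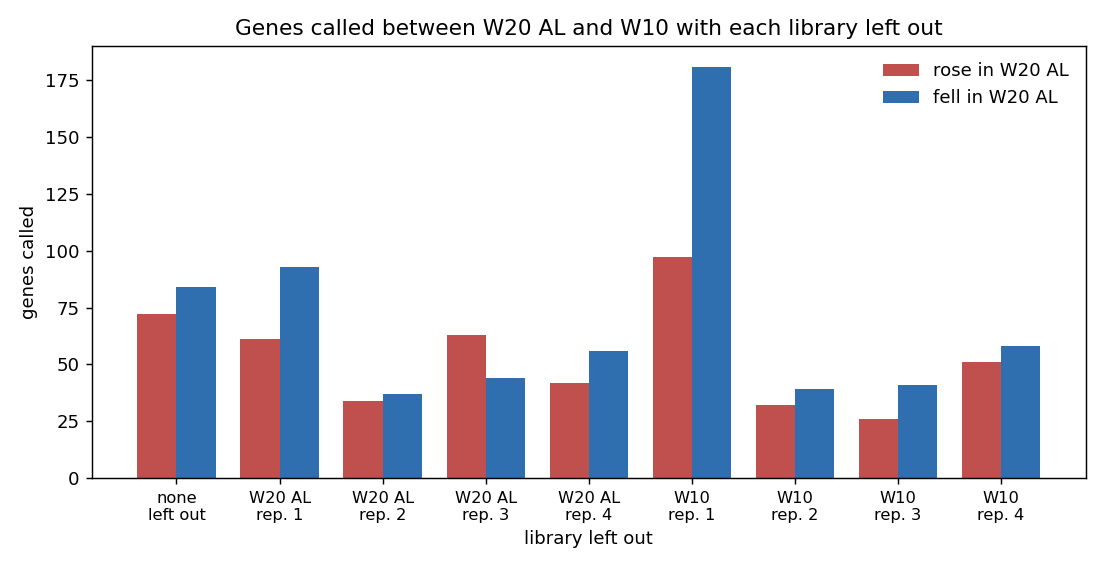
Genes called between W20 AL and W10 (vertical axis) with all libraries and with each of the 8 libraries left out (horizontal axis), separately for genes that rose and genes that fell in W20 AL. Without W10 replicate 1 the number of falling genes increases to 181, whereas the other libraries left out give 37 to 93.

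W10 replicate 1 was the library with the largest distance to its own group. Its root mean square log2 difference to the mean of the other W10 libraries was 0.45, whereas the other 3 W10 libraries had 0.32 to 0.39 and the W20 AL libraries 0.33 to 0.39. This order, with replicate 1 first, also held with other scalings, with a prior count of 10 and for genes with at least 10 counts in each library. The gap to the next library did not exceed the limit of Dixon's test for 4 values (0.829). Only a very large gap exceeds this limit, and the other W10 libraries were compared with means that included replicate 1. The test thus does not decide whether the library stands apart. In pairs, W10 replicate 1 lay 0.493 to 0.542 from the other W10 libraries, which lay 0.382 to 0.456 from each other. W10 replicate 1 exceeded all other W10 libraries by more than 2-fold in 156 genes and lay as far below all of them in 160 genes. For the other W10 libraries these numbers were 16 to 19 and 38 to 118, and for the W20 AL libraries 11 to 103 and 38 to 120. It held 25337530 counts, within the range of its group, and 22608 genes with a count, the highest number of the 8 libraries.

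Where W10 replicate 1 lies between the ages was measured on genes that it had no part in selecting. For this purpose the genes were called without the library in question, and the library was placed on the line from the mean of the other W10 libraries (position 0) to the mean of the W20 AL libraries (position 1). Over 273 genes called without it, W10 replicate 1 had a median position of 0.502 (quartiles -0.0262 and 1.02). The quartiles reached from about the W10 mean to about the W20 AL mean, so that this median does not place the library as a whole. W10 replicates 2, 3 and 4, placed in the same manner on 66 to 107 genes, had median positions of 0.133 to 0.143. W10 replicate 1 was nearer to the W10 mean in 49.8% of its genes, the other W10 libraries in 87.1 to 97.0% of theirs. The median position of W10 replicate 1 was 0.385 for the 93 rising genes and 0.737 for the 180 falling genes. The numbers of genes differ between libraries, since each library has its own list. All other lists were called with W10 replicate 1 included, so that genes whose call it prevented are missing from them. The positions of W10 replicate 1 and of the other W10 libraries thus do not compare like with like. Over all tested genes W10 replicate 1 stood with its own group on the first principal component (37.9% of the variance), at -18.0, against 18.3 to 42.2 in the W20 AL libraries and -40.7 to -19.2 in the other W10 libraries. It stood apart on the second component (17.9%), at 43.4, against -14.9 to 19.6 in the W20 AL libraries and -17.2 to -7.79 in the other W10 libraries.

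The W20 AL libraries had median positions of 0.656, 0.857, 0.738 and 1.19 for replicates 1, 2, 3 and 4. W20 AL replicate 4 thus lay beyond the mean of the other old fish, and in its 56 falling genes the median position was 1.58. W20 AL replicate 1 had the lowest of these positions, with 0.786 for its 58 rising genes and 0.358 for its 93 falling genes. It was nearer to the W20 AL mean in 57.6% of all its genes. Of the 154 genes called without it, 68 were not among those called with all libraries, against 6 to 17 for the other W20 AL libraries. These positions thus do not compare like with like either. Over all tested genes its root mean square log2 difference to the W10 mean was 0.4401, and that of W20 AL replicate 3 was 0.4397.

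**Figure D5:**
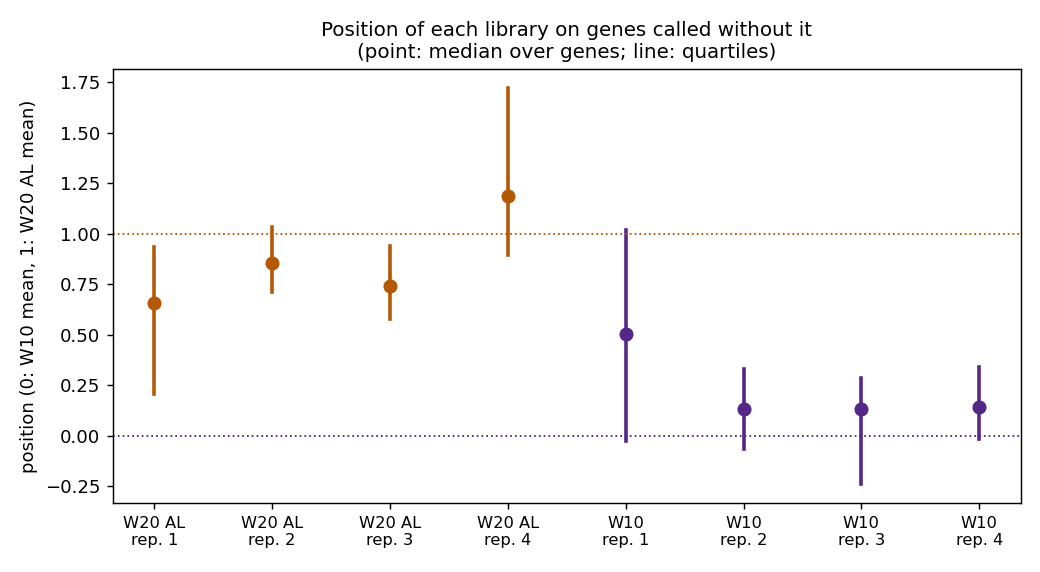
Position of each of the 8 libraries (horizontal axis) between the mean of W10 (0) and the mean of W20 AL (1) on the vertical axis, over the genes called without that library, as median (point) and quartiles (line). W10 replicate 1 lies at 0.502 on its own list. On lists called with W10 replicate 1 included, the other W10 libraries lie at 0.133 to 0.143 and the W20 AL libraries at 0.656 to 1.19.

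Leaving out W10 replicate 1 kept 132 of the 156 called genes, lost 24 and added 146, of which 5 had not passed the filter with all libraries. The lost genes had lain near the threshold (median adjusted p = 0.0411 with all libraries and 0.0547 without replicate 1, edgeR's quasi-likelihood test), and their median absolute log2 fold change was 1.22 before and 1.21 after. Of the 141 added genes with values in both fits, 109 fell and 32 rose. Their median absolute log2 fold change was 1.02 with all libraries and 1.28 without W10 replicate 1, and their median standard error was 0.35 with and 0.26 without it. These genes were selected by losing their call in the presence of W10 replicate 1, so that its place among them is largely set by the selection and is not given. The share of rising genes among those called was 34.9% without W10 replicate 1, against 46.2% with all libraries.

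For the 43 falls of more than 4-fold it was the highest W10 library in 36, and without it their median log2 fold change was 2.65 in size instead of 3.06, with 38 of the 43 still called. For the 12 abundant falling genes the sizes were 2.74 without it and 3.09 with it, with 10 of the 12 still called. Without W20 AL replicate 4, at the other end of the order, the 43 genes had a median of 2.74 and 37 were still called. These genes were selected with both libraries included. Smaller falls without either library thus follow in part from the selection. In the highest class of expression 3 genes rose and 19 fell without W10 replicate 1, against 4 and 20 with all libraries.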

How the data were processed

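Total RNA of the intestine (whole intestine per the labels, small intestine in the study's methods) was enriched for poly(A) RNA, and directional libraries were sequenced as pairs of 75 bp reads. Per the labels, the authors used Trimmomatic, STAR and featureCounts, whose versions are not given in the sources used here, and the study names the genome Nfu_20140520 with Ensembl release 108. The deposited values are raw read counts per gene for 25475 genes in 12 libraries, with 4 libraries per group. No source ties a library number to a shared batch.

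Genes were filtered with filterByExpr (minimum count 10, minimum total 15), which left 18027 genes with 99.9% of the counts. They were tested with edgeR 4.0.16 (TMM scaling, robust quasi-likelihood fit, R 4.3.3) in a model with a mean for each of the 3 groups, W20 IF included to estimate the spread, and the contrast W20 AL minus W10. The Benjamini-Hochberg adjustment ran over all tested genes, and a call required more than a 2-fold change, an absolute log2 value of 1, with an adjusted p-value under 0.05. CPM values use TMM-scaled totals, and log2 CPM a prior count of 2. Standard errors are the absolute log2 fold change divided by the square root of the quasi-likelihood F statistic. Single values were tested by exact permutation of the 8 libraries. The labels do not state that each library is a separate animal, whereas the study's methods describe its samples as animals of each cohort. The study also reports more W10 and W20 AL samples than the libraries given here. The p-values measure the spread between these libraries. A W20 IF library of 1512262 counts entered the filter, the scaling and the model, and the sums given for W20 IF. Without this library, 170 genes were called (85 higher and 85 lower in W20 AL), against 156 (72 and 84) with it. By adjusted p alone there were 591 genes without it and 437 with it. Between libraries of 1 group, counts differed by a chi-square of at least 9.41 per degree of freedom in the 12 pairs within W20 AL and W10, thus more than sampling noise. Other pairs were not compared.

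The members and lists were chosen with earlier results of these data known. The genes given by identifier are those called without overlap with the largest log2 fold change and with the highest mean CPM in each direction. The alternatives were other scalings, filters, tests (DESeq2 1.42.0, the edgeR likelihood ratio test, limma 3.58.1 voom with sample weights) and models, a limit of 1.5-fold, a prior count of 10 and each library left out. A model of 7 libraries was added after seeing the data. The scripts were tested on simulated data. Lists of cell type markers and of other genes were not used, since 0 identifiers matched a gene name, and the labelled tissue was not checked against markers.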

Additional observations from a re-analysis of the deposited data

How the results depend on the processing

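With each library left out, called genes numbered 67 to 278, genes at an adjusted p-value under 0.05 127 to 594, the median absolute log2 fold change of called genes was 1.39 to 2.02, 34.9 to 58.9% of them were higher in W20 AL, the lowest expression class had 0.464 to 1.78% and the highest 0.109 to 0.655% called, and the distance of W10 replicate 1 to its group was 0.457 to 0.481. DESeq2 called 284 genes (843 by adjusted p alone, 2.47% of the lowest class), the edgeR likelihood ratio test 324 (911, 3.72%), and limma voom 366 (1594, 3.61%, and 1.08% of the highest class). With the 8 libraries only, 175 genes were called (88 higher and 87 lower), 1067 passed the adjusted p alone and 1.74% of the lowest class were called. The 7 libraries without W10 replicate 1 gave 313 called genes (37.4% higher), 1542 by adjusted p alone and 2.94% of the lowest class. A limit of 1.5-fold gave 301 genes, a median of 1.02 and 1.55% of the highest class. In the lowest class, 0.144% were called without a filter and 0.814% with at least 10 counts in each library. The distance of W10 replicate 1 was 0.376 with at least 10 counts and 0.371 with a prior count of 10, still the largest of the 8 libraries.

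The replicate numbers did not pair the libraries (correlations of same-numbered deviations -0.15 to 0.08). With a replicate block, 98 genes were called (56.1% higher) and 256 passed the adjusted p alone, with 0.832% of the lowest and 0.222% of the highest class called. The call of ENSNFUG00015012843 was lost with the block, that of ENSNFUG00015003267 with the block and with the 8 libraries only. The 4 genes given by identifier kept their direction in each alternative run for them. ENSNFUG00015015138 did not pass the filter with the 8 libraries only and has no result there. Of the 156 genes, 149 were called by DESeq2, the likelihood ratio test and voom as well. The causes of these differences were not tested. In the lowest class each of the 45 genes past the adjusted p had changed more than 2-fold, at a median standard error of 0.34 over the class.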

Other observations

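Many genes changed more than 2-fold in the fitted values without passing the test. There were 445 such genes, 213 higher and 232 lower in W20 AL, with a median level of 1.24 CPM and a median standard error of 0.55, against 0.30 for the 156 called genes.

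The genes called between W20 AL and W10 were also summed in the W20 IF libraries. Their levels did not enter the difference between W20 AL and W10, but had a part in the filter and in the spread behind the calls. Genes selected for a difference between W20 AL and W10 also favour a place of W20 IF between them, and this place was not tested. The 72 rising genes summed to 745, 883, 819 and 588 CPM in W20 IF, and the 43 genes that fell more than 4-fold to 3713, 8611, 6935 and 6585 CPM. For the rising genes each W20 IF library lay between the W20 AL and the W10 libraries. For the falling genes 1 W20 IF library lay below all W10 libraries and 3 lay within their range. The fourth value of each group comes from a library of 1512262 counts.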
